A study of Mus musculus with 15 samples.

Results

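Genes of presynaptic vesicle release were followed in the brains of Tbr1-K228E mice at E16.5, an embryonic stage at which cortical neurons are still being born. The set is a list of 35 genes for synaptic vesicle, SNARE, active zone and vesicular transporter proteins, given by name, and all 35 were found by symbol among the 19475 genes of the deposited table. All 35 also passed the filter for testing (a mean of at least 5 normalized counts), as did 16507 genes in all. RNA-Seq had been performed on 5 WT, 5 heterozygous Tbr1+/K228E and 5 homozygous Tbr1K228E/K228E embryos, with 3 females and 2 males in each genotype. The mice are of the C57BL/6J strain and carry a lysine-to-glutamate change in exon 1 of Tbr1, a T-box transcription factor of early-born cortical neurons, in every cell. The neomycin cassette of the targeted allele had been removed with a protamine-Cre line. The study calls the tissue forebrain and the deposited labels call it whole brain, and nothing in either links an embryo to a litter, so that p-values measure the spread between these 15 samples.

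At a synapse, transmitter is pumped into vesicles by vesicular transporters, and vesicles are tethered at the active zone by large scaffold proteins, primed by Unc13 proteins and complexins, and fused with the membrane by SNARE proteins when synaptotagmin binds calcium. The SNARE complex is then taken apart by NSF and its SNAP cofactors, and the vesicle membrane is retrieved by endocytosis. Most of these genes are switched on as neurons leave the cell cycle, well before mature synapses form, and many of them are repressed in other cells by the factor REST, which binds the RE1 element.

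The promoters of Syn1 and Ppfia3 are shown because they hold the left part of that RE1 element, spelled TTCAGCACC, which is shared by few promoters. RefSeq promoter windows (GRCm38.p6, 250 bases before to 50 bases after a gene's start) were matched for 30 of the 35 genes, and 17 letter strings were searched on both strands. TTCAGCACC was found in 3 of the 30 genes (10%), and in 0.556% of the 12238 tested genes with such a window. The cAMP response element (CRE) TGACGTCA was found in 2 genes (6.67%, against 3.28%), and the T-box core GGTGTGA in 1 gene, Sv2b (3.33%, against 4.19%). The string CAGCACC, which lies inside TTCAGCACC, was found in 13.3% of the 30 genes and in 8.98% of all. The bases shown lie outside every exon of GENCODE M21, 5′ to 3′ on the gene's strand, and the capitals mark TTCAGCACC in both and TGACGTCA in Syn1.
Syn1 (chrX:20921005-20921168, minus strand): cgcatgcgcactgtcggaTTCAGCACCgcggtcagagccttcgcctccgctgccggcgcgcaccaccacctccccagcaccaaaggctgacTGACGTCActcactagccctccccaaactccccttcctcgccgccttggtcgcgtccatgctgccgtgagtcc
Ppfia3 (chr7:45367020-45367232, minus strand): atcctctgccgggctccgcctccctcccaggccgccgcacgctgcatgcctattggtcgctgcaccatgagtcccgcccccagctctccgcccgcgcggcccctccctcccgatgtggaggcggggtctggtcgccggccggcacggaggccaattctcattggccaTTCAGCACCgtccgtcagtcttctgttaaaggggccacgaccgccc

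TTCAGCACC begins 232 bases before the start of Syn1 and 46 bases before that of Ppfia3. The same letters lie on the opposite strand in Unc13a, from base 23 after its start. Such matches are letters and not measured binding sites, and a window without a match says nothing about a factor. The searched strings that join the left and right parts of RE1 were each found in 0 of the 30 genes. They were found in 0.0735%, 0.163% and 0.253% of the 12238 tested genes with a window. The right part alone was found in 1 of the 30 genes (3.33%, against 0.294%). The matches in the list are thus to parts of RE1 and not to the joined element, and an excess in the list was not tested.

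All 35 genes were expressed in every embryo, although synapses are still few at this age. In WT brain the levels per kilobase of transcript spanned from 203 ± 43.5 normalized counts per kb for Sv2b to 6043 ± 723 for Rab3c (SD, n = 5). The highest levels belonged to Rab3c and Rab3a, small GTPases of the vesicle surface, and to the SNARE genes Vamp2 (4605 ± 426) and Snap25 (3637 ± 443). Several active zone scaffolds stood towards the lower end, with 466 ± 44.5 normalized counts per kb for Bsn, 366 ± 42.5 for Pclo and 334 ± 26.6 for Rims2. Among the other scaffolds, Ppfia3 was at 740 ± 85.7 and Erc2 at 1052 ± 132 (rank 21). Of the 34 pairs of neighbours in this order, 33 overlapped between WT embryos, so that the order within each stretch is not resolved. The exception was the step from Syt11 down to Syt1. The place of Rab3c depends on its transcript, since it moved from rank 1 to rank 8 when the longest annotated transcript was used as its length.

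**Figure D1:**
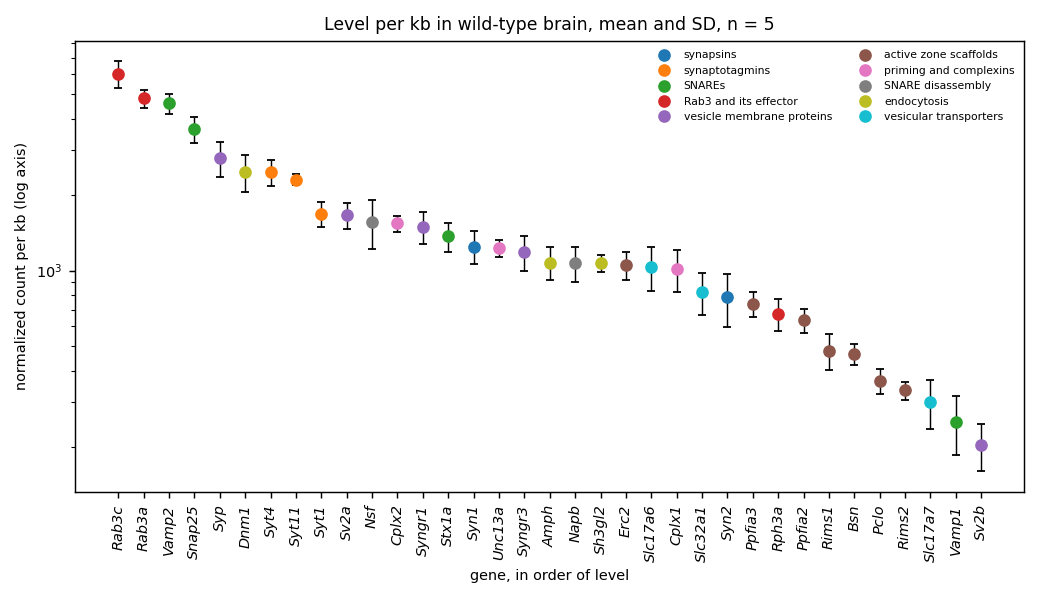
Level of the 35 genes in WT embryos, in normalized counts per kilobase of transcript on a log axis, with points for the mean, bars for the SD (n = 5) and colours for the role. Rab3c, Rab3a, Vamp2 and Snap25 lie at the high end, and Slc17a7, Vamp1 and Sv2b lie at the low end.

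Some paralogues differed severalfold in level and others were close. In WT brain the level per kb of Vamp2, the SNARE of most central synapses, was 18.5 times that of Vamp1 (median, range 14.9 to 23.5 over 5 embryos). Sv2a was 8.24 times Sv2b (range 7.18 to 9.11), and Unc13a, the main priming factor of excitatory synapses, was 2.08 times Unc13b (range 2.01 to 2.33), or 3.68 times when the longest annotated transcripts were used as lengths. Slc17a6 (VGLUT2), which loads glutamate in thalamic, midbrain and hindbrain neurons and in young neurons, was 3.31 times Slc17a7 (VGLUT1), the transporter of mature cortical neurons (range 2.46 to 5.95). Other pairs were closer, with a level per kb of Cplx2 that was 1.61 times that of Cplx1 (range 1.29 to 1.75) and of Syn1 that was 1.51 times that of Syn2 (range 1.43 to 1.93). Rims1 was 1.44 times Rims2 (range 1.24 to 1.61) and Ppfia3 was 1.16 times Ppfia2 (range 1.10 to 1.23). The ratios of Rab3c to Rab3a, at 1.23, and of Syngr3 to Syngr1, at 0.790, crossed 1 with the longest transcripts, at 0.385 and 1.32, so that no order is given for these pairs.

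The main question asked of this list was whether its genes change with the K228E allele, in 1 copy or in 2. None of the 35 genes passed the adjusted threshold of 0.05 (limma, Benjamini–Hochberg over the 16507 tested genes) in any of the 3 genotype comparisons, which share their embryos in pairs. The transcript of Tbr1 itself was higher in homozygotes. Tbr1 levels ran from 2097 to 4871 normalized counts in WT, from 4738 to 8543 in Tbr1+/K228E and from 7148 to 16015 in Tbr1K228E/K228E embryos. The homozygous increase over WT of 1.69 ± 0.23 (log2 fold change ± SE) passed the test (limma adjusted p = 0.00437). The differences of 0.85 ± 0.23 in heterozygotes against WT and 0.85 ± 0.23 between the mutants did not (limma adjusted p = 0.999 and 0.614). Normalized counts per gene do not show the base change, so that they do not test the genotype labels directly.

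In Tbr1+/K228E embryos, 32 of the 35 genes had a log2 fold change below 0 against WT, whereas 51.2% of all tested genes did. The sizes were small, with a median of -0.07 and a range from -0.37 to 0.17, and the median of all tested genes was -0.002. No gene of the list had even an unadjusted p under 0.05, where 295 of all tested genes (1.79%) did, and no tested gene passed the adjusted threshold (percent called 0). The 3 genes above 0 were Syngr3, a vesicle membrane protein, Sh3gl2 (endophilin A1, an endocytosis protein) and Slc17a7.

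That tilt rested on few embryos. Without WT replicate 4, 19 of the 35 genes lay above 0 and the median was 0.004, and without Tbr1+/K228E replicate 2, 11 lay above 0. Without WT replicate 5 or Tbr1+/K228E replicate 3, 6 did. Without both WT replicate 4 and Tbr1+/K228E replicate 2, 31 lay above 0 and the median was 0.05. WT replicate 4 held the highest of the 15 values for 25 of the 35 genes, and Tbr1+/K228E replicate 2 held the lowest for 22. Marker genes set the same embryos apart. In WT replicate 4 the 18 listed Hox genes of the hindbrain and spinal cord summed to 3288 normalized counts. Only Tbr1+/K228E replicate 1, at 3966, had a higher Hox sum, and the other 13 embryos ranged from 7.20 to 1154. Averaged on the log2 scale, 8 thalamic and midbrain genes were at 6.34 in Tbr1+/K228E replicate 2, against 8.35 to 10.4 in the other 14 embryos, none of these 8 genes being at 0. Hox, thalamic and midbrain markers thus differed widely between samples of 1 genotype, and their part in the genotype differences was not tested beyond the fits with marker scores given here. In brain tissue as a whole, fewer cells of a type and less RNA per cell cannot be told apart.

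**Figure D2:**
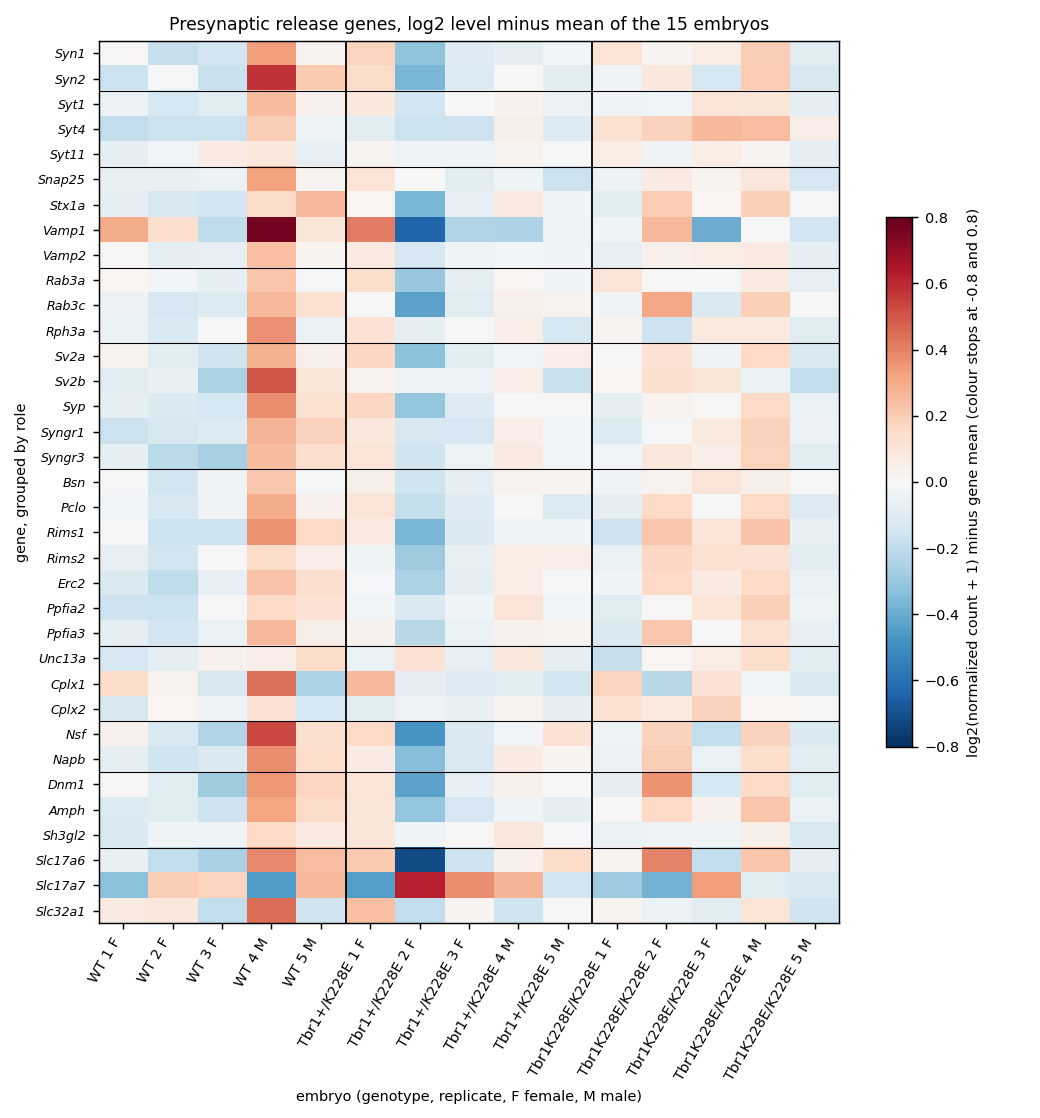
Level of each of the 35 genes (rows, grouped by role) in each of the 15 embryos (columns), as log2(normalized count + 1) minus the gene's mean, red above and blue below. The column of WT replicate 4 is red in nearly every row and that of Tbr1+/K228E replicate 2 is blue in most rows, with Slc17a7 opposite in both.

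In Tbr1K228E/K228E embryos the list as a whole stayed near WT, with 19 genes above 0 and 16 below and a median log2 fold change of 0.007 (48.7% of all tested genes lay above 0). Without WT replicate 4, 31 genes lay above 0 and the median was 0.08, and without WT replicate 2, 11 genes did. Of all tested genes, 0.127% passed the adjusted threshold and 3.23% had an unadjusted p under 0.05. In the list these counts were 0 and 2, and the 2 genes were Syt4 and Cplx2, both higher in homozygotes, as were 1.48% of all tested genes at that p. Against Tbr1+/K228E embryos, 30 genes lay above 0 (50.2% of all tested genes did) with a median of 0.07, and again 0 passed the adjusted threshold (0.0788% of all tested genes did) and Syt4 and Cplx2 were the 2 with an unadjusted p under 0.05 (3.30% of all, and 1.71% with homozygotes higher). Both counts use the same homozygous embryos and are therefore not independent of each other.

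Syt4 showed the clearest difference between genotypes within the list. It encodes a synaptotagmin that lacks part of the calcium-binding residues and is found on dense-core and other vesicles, and the gene lies on chromosome 18 (GRCm38, minus strand, ENSMUSG00000024261). In the homozygotes its normalized counts were 10848, 11332, 11934, 11862 and 10382. In Tbr1+/K228E embryos they were 9436, 8870, 8893, 10317 and 9252, all below every homozygote. The WT embryos had 8733, 8872, 8860, 11434 and 9773, and WT replicate 4 reached into the homozygous range. Syt4 was the only gene of the list whose homozygous and heterozygous embryos did not overlap with homozygotes higher, where 0.491% of all tested genes did so.

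The log2 fold change of Syt4 was 0.25 ± 0.07 (SE, 95% interval 0.10 to 0.40) in homozygotes against WT, a 1.19-fold difference (limma unadjusted p = 0.00302, adjusted p = 0.692). Against heterozygotes it was 0.27 ± 0.07 (interval 0.12 to 0.42, unadjusted p = 0.00157, adjusted p = 0.550). The call depended on WT replicate 4. Without it, the difference from WT rose to 0.31 and passed the threshold (limma adjusted p = 0.0366), while leaving out any other WT embryo or any homozygote gave adjusted p-values from 0.718 to 1.00. Syt4 also followed the cell cycle score described below, and with that score in the fit the differences were 0.23 (adjusted p = 0.137) and 0.21 (adjusted p = 0.389).

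Cplx2, a complexin that clamps and then promotes fusion, moved by less. It lies at chr13:54371349-54383917 on the plus strand. The WT embryos had 7076, 7818, 7585, 8384 and 7021 normalized counts, the heterozygotes 7265, 7520, 7416, 7897 and 7346, and the homozygotes 8409, 8182, 8793, 7813 and 7781. The homozygous values lay above most of the others, but WT replicates 2 and 4 and the heterozygote at 7897 fell among them. The log2 fold change was 0.11 ± 0.05 against WT and 0.13 ± 0.05 against heterozygotes (limma unadjusted p = 0.036 and 0.020, adjusted p = 1.00 and 0.996).

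Vamp1, a vesicle SNARE that is used mainly in spinal cord and brainstem, had the largest fold change of the list in heterozygotes. Its values were 716, 641, 507, 993 and 623 in WT, 773, 373, 493, 491 and 568 in Tbr1+/K228E, and 568, 697, 442, 582 and 523 in Tbr1K228E/K228E embryos. The groups overlapped throughout, and the high embryos, WT replicate 4 and Tbr1+/K228E replicate 1, are those with the most Hox RNA. The log2 fold change was -0.37 ± 0.19 in heterozygotes (limma unadjusted p = 0.069, adjusted p = 0.999) and -0.29 ± 0.19 in homozygotes (unadjusted p = 0.151, adjusted p = 1.00). Without WT replicate 4 they were -0.23 and -0.15, and with the Hox score in the fit -0.22 and -0.12.

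**Figure D3:**
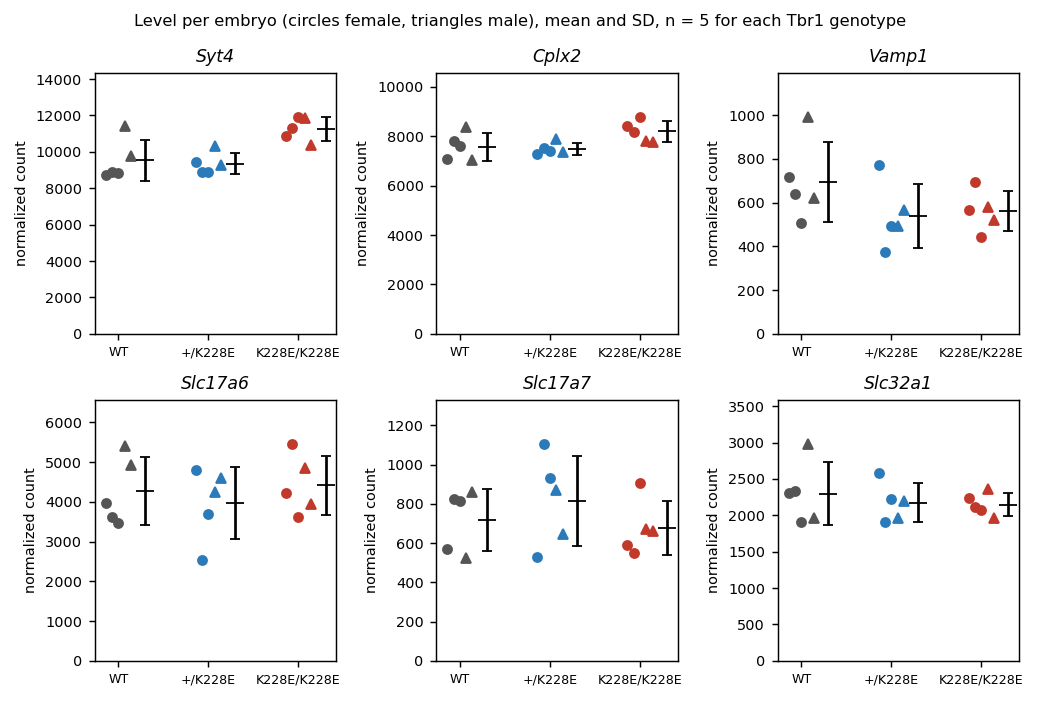
Normalized counts of Syt4, Cplx2, Vamp1 and the vesicular transporters Slc17a6, Slc17a7 and Slc32a1 in each embryo, from 0, by Tbr1 genotype (circles female, triangles male), with the mean and SD (n = 5) in black. Only in the Syt4 panel do the homozygous points all lie above the heterozygous ones, while the WT point at 11434 lies among them.

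The other genes with the smallest p-values were no closer to the threshold. Syn2, a synapsin that tethers reserve vesicles, had 2440, 2725, 2436, 4107 and 3180 normalized counts in WT and 3050, 2138, 2556, 2749 and 2593 in heterozygotes, a log2 fold change of -0.17 ± 0.13 that was -0.04 without the 1 WT value above 4000. In homozygotes its values were 2698, 2925, 2500, 3163 and 2514, inside the WT range. Rims1, the scaffold that links Rab3 to the calcium channels, had 2810, 2530, 2526, 3657 and 3173 in WT, 2981, 2204, 2621, 2771 and 2773 in heterozygotes, and 2541, 3319, 3052, 3336 and 2733 in homozygotes. Its log2 fold change in heterozygotes was -0.13 ± 0.11, or -0.05 without WT replicate 4, and the groups overlapped. Amph (amphiphysin, which recruits dynamin in endocytosis) had 3219, 3244, 3096, 4316 and 3856 in WT, 3718, 2797, 3164, 3396 and 3304 in heterozygotes and 3459, 3875, 3557, 4051 and 3348 in homozygotes, with a log2 fold change of 0.16 ± 0.09 between the mutant genotypes (limma unadjusted p = 0.103, adjusted p = 0.996), or 0.11 without Tbr1+/K228E replicate 2.

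The vesicular transporters tell excitatory from inhibitory neurons and were looked at for that reason. Slc17a6 had 3979, 3615, 3466, 5413 and 4918 normalized counts in WT, 4795, 2524, 3692, 4260 and 4603 in Tbr1+/K228E, and 4233, 5466, 3617, 4842 and 3937 in Tbr1K228E/K228E embryos. Slc17a7 had 571, 823, 813, 525 and 858 in WT, 527, 1107, 930, 868 and 648 in heterozygotes, and 589, 551, 905, 672 and 663 in homozygotes. Slc32a1 (VGAT), which loads GABA and glycine, had 2299, 2327, 1914, 2985 and 1965 in WT, 2585, 1908, 2227, 1960 and 2191 in heterozygotes, and 2231, 2116, 2066, 2366 and 1957 in homozygotes. In each of the 3 genes every pair of genotypes overlapped. None passed the test, with limma 95% intervals against WT of -0.49 to 0.25 and -0.31 to 0.42 for Slc17a6, of -0.26 to 0.59 and -0.50 to 0.35 for Slc17a7, and of -0.30 to 0.16 and -0.31 to 0.15 for Slc32a1 (log2, heterozygotes and then homozygotes). Slc17a7 had the widest interval of the 35 genes, and the narrowest, -0.08 to 0.08 and -0.07 to 0.09, belonged to the synaptotagmin Syt11. With 5 embryos in a group, changes within these intervals were not excluded.

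The share of VGLUT1 among the glutamate transporters varied most between single embryos. The level per kb of Slc17a7 relative to Slc17a6 ran from 0.168 in WT replicate 4 to 0.760 in Tbr1+/K228E replicate 2, around a median of 0.292 over the 15 embryos. The medians of the genotypes were 0.302 in WT, 0.353 in Tbr1+/K228E and 0.241 in Tbr1K228E/K228E embryos, well inside that range. Slc32a1 relative to Slc17a6 ran from 0.573 to 1.12.

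By role, the small shift in heterozygotes ran through nearly every class of the list when all embryos were used. All 7 active zone scaffolds (Bsn, Pclo, Rims1, Rims2, Erc2, Ppfia2 and Ppfia3) lay below WT, by -0.002 to -0.13 on the log2 scale. So did all 4 SNARE genes, all 3 synaptotagmins, both synapsins and the disassembly genes Nsf and Napb, and the smallest unadjusted p of all these classes was the 0.069 of Vamp1. In homozygotes 6 of the 7 scaffolds lay above WT, the largest being Erc2 at 0.07. The vesicle membrane proteins Sv2a, Sv2b, Syp, Syngr1 and Syngr3 had log2 fold changes from -0.08 to 0.02 in heterozygotes and from -0.04 to 0.08 in homozygotes.

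**Figure D4:**
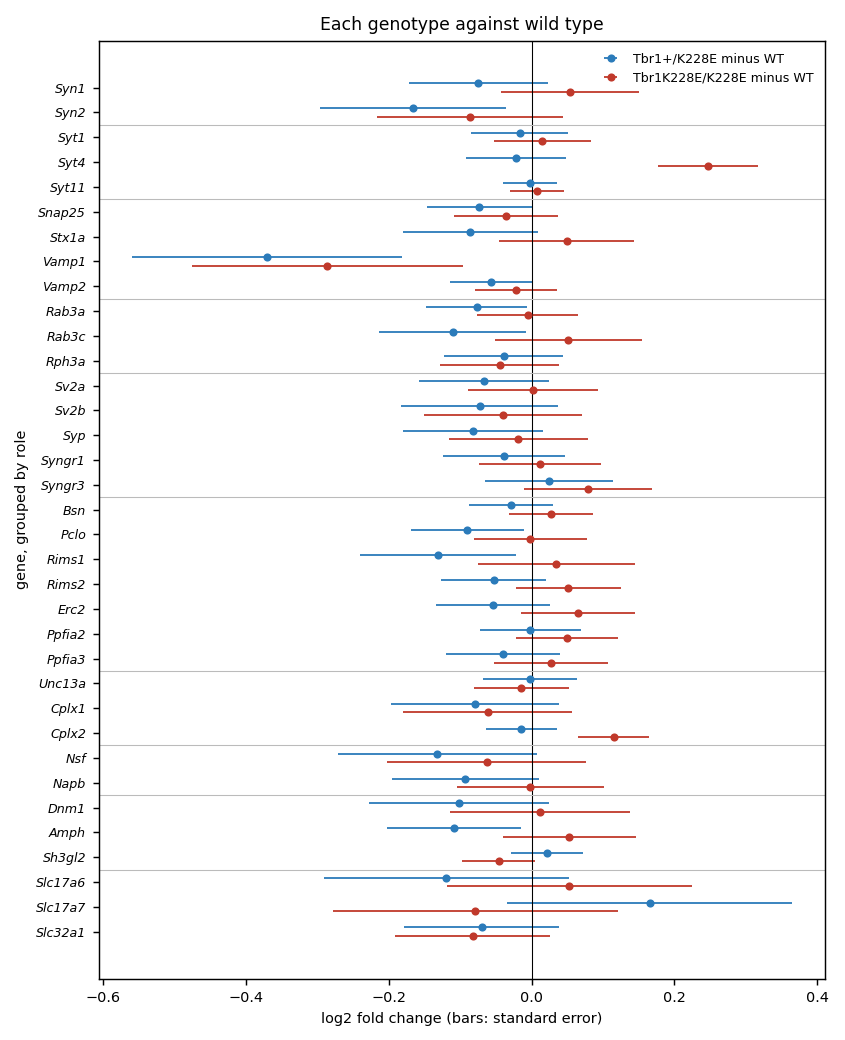
Log2 fold change of the 35 genes, grouped by role, in Tbr1+/K228E (blue) and Tbr1K228E/K228E (red) embryos against the same WT embryos, with bars for the standard error. The blue points lie below 0 for 32 genes, and the red point of Syt4, at 0.25, is the one farthest above 0.

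Other presynaptic genes outside the list were read in the same fit. Of 62 further genes (Syn3, other synaptotagmins, Munc18 and tomosyn genes, vesicular monoamine and acetylcholine transporters and others), 0 passed the adjusted threshold in any genotype comparison by limma. With an unadjusted p under 0.05 there was 1 in heterozygotes against WT, 0 in homozygotes against WT and 2 between the mutants. Their median log2 fold changes were -0.05, 0.01 and 0.08 in the same order. Slc18a1, a vesicular monoamine transporter, had between 8.2 and 21.1 normalized counts in WT and between 1.7 and 7.6 in heterozygotes (log2 fold change -1.38 ± 0.60, limma adjusted p = 0.999), but these are low values and the homozygotes ran from 1.6 to 43.9. Cplx3, a complexin of retinal ribbon synapses, was likewise at 17.2 or below in every embryo. Syngr2 and Syt5 had the smallest p-values in homozygotes against WT (-0.30 ± 0.15 and 0.14 ± 0.07, limma adjusted p = 1.00). Stxbp6 (amisyn) and Syngr2 did between the mutants, with 0.34 ± 0.13 and -0.36 ± 0.15 (limma adjusted p = 0.996).

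The larger differences lay between embryos of the same genotype. The median within-genotype SD of the 35 genes was 0.153 on the log2 scale, against 0.0976 for the 8399 tested genes with a mean in the range of the list. It was 0.0557 for Syt11, the most even gene, and 0.351 for Slc17a7, the least even. Marker scores, each the mean log2 level of listed genes, were entered beside genotype to describe this spread. The thalamic and midbrain score was added after the data had been seen.

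The strongest of these relations was with the cell cycle score. The score of 28 cell cycle genes ran from 9.56 to 10.5 over the embryos, and 26 of the 35 genes fell as it rose at an adjusted p under 0.05 (limma), where 17.8% of all tested genes were called and 9.44% were called with a negative slope. The median slope of the list was -0.38 log2 units for each log2 unit of the score (all tested genes 0.002). Of the 62 further presynaptic genes, 35 were called, 33 of them with a negative slope, and their median slope was -0.37. Of 15 pan-neuronal genes 4 were called and 13 fell, with a median slope of -0.25. The relation was thus not particular to the list. Within the list Napb, which helps NSF to take SNARE complexes apart, followed the score most closely, with a slope of -0.55 ± 0.07 (limma adjusted p = 1.40e-04). Its normalized counts ran from 3616 in the embryo with the highest score to 5930 in WT replicate 4, which had the second lowest score. The steepest slope was that of Slc17a6, at -0.83 ± 0.16, followed by Vamp1, Dnm1 (dynamin 1, which pinches off endocytic vesicles) and Nsf at -0.70 ± 0.23, -0.67 ± 0.09 and -0.66 ± 0.13. Regional markers followed this score too. Its median slope was 0.997 for 9 cortical excitatory neuron genes (9 rose) and 1.08 for 10 GABAergic neuron genes (8 rose). For 8 thalamic and midbrain genes it was -1.57 and for 14 tested Hox genes -2.41 (0 rose in each). Dividing cells and brain region can thus not be told apart in this score.

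The relation was uneven between roles. All 7 active zone scaffolds, all 5 vesicle membrane genes, all 4 SNARE genes, both disassembly genes and all 3 endocytosis genes were called. Of the 3 genes for priming and complexins 0 were called, with slopes of -0.18 ± 0.09 for Unc13a, -0.01 ± 0.18 for Cplx1 and -0.02 ± 0.08 for Cplx2 (limma unadjusted p = 0.0683, 0.956 and 0.786). Syt11 was flat as well, at -0.01 ± 0.06, and Slc17a7 had a slope of 0.47 ± 0.29 that did not pass. Without WT replicate 4 the count of called genes was 15 (the share of all tested genes in that fit is not given here). With sex as a further term it was 18, where 9.49% of all tested genes were called.

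The cell cycle genes had small genotype differences of the opposite sign. All 28 lay above WT in heterozygotes (median log2 fold change 0.13, where 48.8% of all tested genes lay above 0), and all 28 lay below heterozygotes in homozygotes (median -0.20, where 49.8% lay below 0), with 0 past the adjusted threshold and 0 at an unadjusted p under 0.05 in each (limma). With their score in the fit, the median log2 fold changes of the 35 presynaptic genes became -0.01, -0.02 and -0.01 in heterozygotes against WT, homozygotes against WT and homozygotes against heterozygotes. The numbers of genes above 0 then were 10, 12 and 15 of 35.

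Regional markers divided the list differently. With the score of the Hox genes, 4 of the 35 genes were associated at an adjusted p under 0.05 (limma, 1.85% of all tested genes). Vamp1 (0.13 ± 0.02 log2 units per unit of score), Slc32a1 (0.07 ± 0.01) and Cplx1 (0.07 ± 0.02) rose with it, and Slc17a7 (-0.13 ± 0.03) fell. With the thalamic and midbrain score, 4 genes were associated (2.65% of all tested genes, and 2.37% with a positive slope), and all rose with it: Slc17a6 (0.25 ± 0.04), Rab3c (0.14 ± 0.03), Nsf (0.18 ± 0.04) and Dnm1 (0.16 ± 0.04). The meningeal score, from 13 genes, was associated with 0 of the 35 (limma, 7.16% of all tested genes), and with 3 at an unadjusted p under 0.05 (17.9% of all). The regional relations hung on the embryos at the ends. The count of 4 Hox associations became 0 without WT replicate 3, WT replicate 4 or Tbr1+/K228E replicate 1, and 2 without WT replicate 1. The count of 4 thalamic and midbrain associations became 0 without Tbr1+/K228E replicate 2 and 1 without Tbr1K228E/K228E replicate 3, and it was 2 without WT replicate 1 or 3, Tbr1+/K228E replicate 1 or 5, or Tbr1K228E/K228E replicate 2. The meningeal count was 1 without WT replicate 3. The shares of all tested genes in these fits are not given here, so that the counts do not show whether a change was particular to the list.

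**Figure D5:**
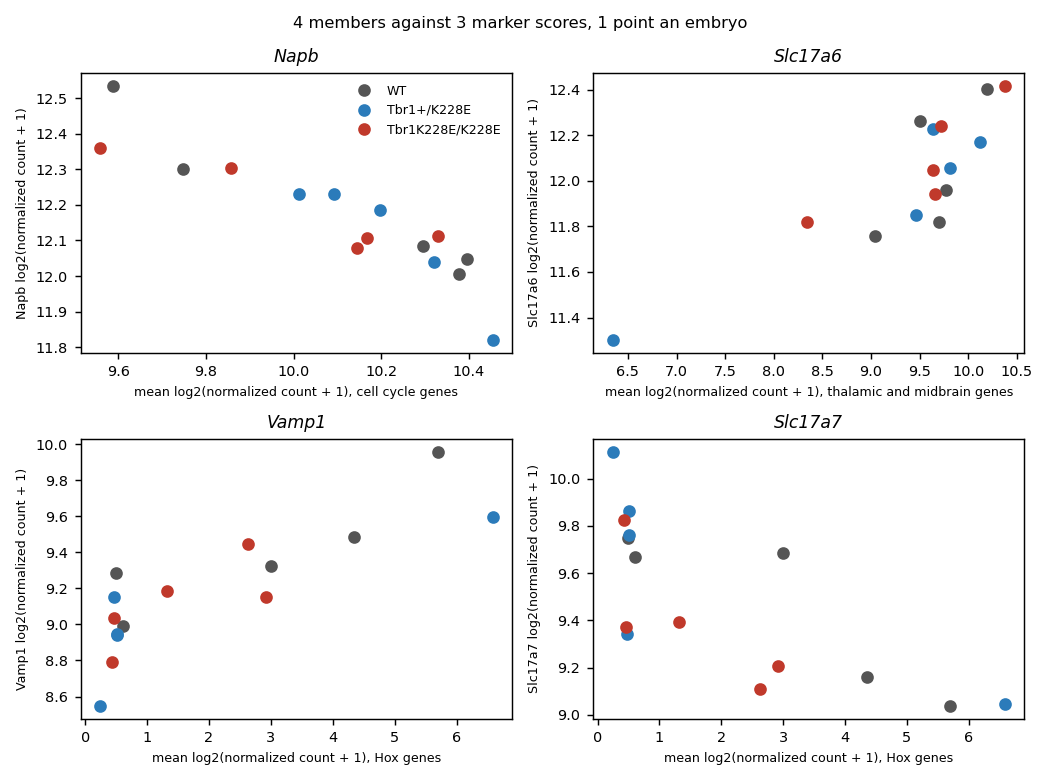
Log2 level of Napb against the cell cycle score, of Slc17a6 against the thalamic and midbrain score, and of Vamp1 and Slc17a7 against the Hox score, with 1 point for each of the 15 embryos, coloured by genotype. Napb falls along the cell cycle score in all 3 genotypes, the lowest Slc17a6 point is Tbr1+/K228E replicate 2 at a score of 6.34, and Vamp1 rises and Slc17a7 falls with the Hox score.

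Sex was balanced between genotypes, and the 35 genes tended to be higher in males. The log2 difference, male minus female, was above 0 for 31 of the 35 genes (50.4% of all tested genes) with a median of 0.11, where the median of all tested genes was 0.001. None passed the adjusted threshold (limma, 0.0788% of all tested genes did), and 10 had an unadjusted p under 0.05, all higher in males, where 6.23% of all tested genes were higher and 4.81% lower at that p. Of the 62 further presynaptic genes, 50 lay above 0 (median 0.11), and 20 were higher and 1 lower in males at that p. The tendency was thus not particular to the list. Within the list Syngr1 (synaptogyrin 1) was first, at 0.18 ± 0.06 (limma unadjusted p = 0.0079, adjusted p = 0.410). In the 9 females its normalized counts had a median of 3400 and ranged from 3257 to 3881, and in the 6 males they had a median of 3983 and ranged from 3557 to 4437, so that the sexes overlapped. Ppfia2 (liprin alpha 2, an active zone scaffold) ranged from 4048 to 4908 in females around a median of 4457, and from 4446 to 5207 in males around 4926. Stx1a, the plasma membrane SNARE, ranged from 2265 to 3355 in females around 2768, and from 2860 to 3504 in males around 3147.

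The cell cycle score was lower in males, at a mean of 9.92 against 10.2 in females, and each of the 28 genes had a log2 difference below 0. In a fit with both terms, 0 of the 35 presynaptic genes had an unadjusted or adjusted p under 0.05 for sex (limma, 3.25% and 0.0606% of all tested genes did), and the median difference was 0.01. The cell cycle slopes in that fit had a median of -0.35. WT replicate 4, which held the highest value for 25 of the 35 genes, was male. With 2 males in a genotype, sex and the composition of single embryos cannot be told apart. No interaction of sex with either mutant genotype passed the adjusted threshold in the list (limma, 0 of 35 for each). An unadjusted p under 0.05 was found for 4 genes in heterozygotes and 7 in homozygotes, against 6.70% and 6.46% of all tested genes. Most of the interaction terms of the list lay below 0, with the male excess smaller or reversed in the mutants against WT. For Syngr1 they were -0.29 in heterozygotes and -0.28 in homozygotes. Both terms use the same 2 WT males, among them WT replicate 4, and the share of all tested genes below 0 is not given here. The signs therefore do not show a pattern of sex and genotype particular to the list.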

How the data were processed

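RNA had been sequenced with the TruSeq RNA Sample Prep Kit v2, which is not stated to keep strand, so that antisense reads cannot be told apart. The authors quantified transcripts with Salmon 0.11.2 on GRCm38 with GC bias correction, imported them to genes in R 3.5.3 and deposited a signal per gene, that is counts divided by DESeq2 1.22.2 size factors (tool versions from the submitters' processing notes). These values are not whole reads, so that no count model was fitted. Column sums were 30.5 to 31.8 M. The steps of low values gave a rough estimate of 26.3 to 38.0 M read pairs assigned to genes per embryo.

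Log2(value + 1) was fitted with limma 3.58.1 (R 4.3.3, trended eBayes) for genes with a mean of at least 5, all 15 embryos in a single fit. P-values were adjusted by Benjamini–Hochberg over 16507 genes with a threshold of 0.05, all two-sided. The fold changes are on the log2(value + 1) scale. Slopes on sex and marker scores were fitted beside genotype. Positions and the median length of protein-coding transcripts came from GENCODE M21. The model was tested on simulated data.

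The members and all lists were chosen with earlier results of these data known. Values of every embryo are given for the vesicular transporters, genes past the threshold and the 3 smallest p-values of each genotype comparison. For the sex comparison the 3 smallest are given by median and range, and for other presynaptic genes the 2 smallest are named. Genes named for a slope, a level or a role were picked with their values in view. Other fits used pseudocounts of 0.1 and 10, a minimum mean of 0 or 50, upper quartile and quantile scaling, sex, the replicate number and the scores as further terms, robust eBayes, pairs of genotypes alone, an empirical null and leaving out embryos. The thalamic and midbrain score and leaving out 2 embryos together were added after the data had been seen. Some genes are not reported here.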

Additional observations from a re-analysis of the deposited data

Results flagged for a closer look

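A value far from the other 4 of its genotype (Dixon's criterion at the 95% level) was found in 4 of 105 sets, 3 genotypes for each of 35 genes, where chance gives about 1 in 20. Snap25, the plasma membrane SNARE, was at 6912 normalized counts in WT replicate 4, with the nearest WT embryo at 5596. Rph3a (rabphilin, a Rab3 effector) was at 3476 in the same embryo, with the next at 2694. Rab3c was at 10578 in Tbr1+/K228E replicate 2, with the next at 13310. Cplx1 was at 2543 in Tbr1+/K228E replicate 1, with the next at 2010. These are the embryos with the highest Hox sums and the one with the lowest thalamic and midbrain score, and the part of these markers in the values was not tested.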

How the results depend on the processing

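No gene of the list passed the adjusted threshold in heterozygotes against WT or between the mutants under any of 16 alternatives or without any single embryo. In homozygotes against WT the count was 1 (Syt4, 0.31) without WT replicate 4 and Tbr1+/K228E replicate 2 together, and 0 to 1 without single embryos (1 without WT replicate 4). The same counts under the empirical null were 0, with a lowest adjusted p of 0.144 in homozygotes against WT. Upper quartile and quantile scaling put 6 and 5 genes above 0 in heterozygotes, against 3. Without those 2 embryos the heterozygous median was 0.0526. Without single embryos the medians ran from -0.11 to 0.004 in heterozygotes, from -0.02 to 0.08 in homozygotes and from 0.02 to 0.12 between the mutants. Heterozygous differences that changed sign without the 2 embryos were Syn2 (0.0275), Rims1 (0.0189), Slc17a6 (0.125), Slc17a7 (-0.0621) and Slc32a1 (0.0742), and the homozygous one of Slc32a1 (0.0167). Slc32a1 also changed sign with the Hox score (0.0135 in heterozygotes and 0.00877 in homozygotes against WT) and, between the mutants, the meningeal score (0.0100), and Slc17a6 with the cell cycle score (-0.00428 in homozygotes against WT) and the thalamic and midbrain score (0.0209 in heterozygotes). None of these passed a threshold, and the cause was not tested. Without single embryos Slc17a6 ran from -0.196 to 0.0350 in heterozygotes and from -0.0276 to 0.143 in homozygotes, and Slc32a1 from -0.134 to 0.0293, from -0.143 to 0.0167 and, between the mutants, from -0.0575 to 0.0520.

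The associated genes with sex as a further term were 11 for the Hox score and 1 for the thalamic and midbrain score. Without the 2 embryos they were 0 and 0, and 13 for the cell cycle score. Without single embryos they ran from 0 to 4 (Hox), 15 to 25 (cell cycle), 0 to 1 (meninges), 0 to 5 (thalamus and midbrain) and 0 to 0 (sex). The shares of all tested genes in these fits are not given here. The counts thus do not show whether a rise or fall was particular to the list.

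Embryos of the same replicate number did not deviate together in every pair (correlation across genes 0.06, 0.27 and 0.01 over all pairs of heterozygotes with WT, homozygotes with WT and homozygotes with heterozygotes), so that the numbers were not taken to pair the samples. Blocking on that number, 0 genes of the list were called in each comparison, the medians were -0.07, 0.007 and 0.07, and the genes called in the whole table were 0, 16 and 2, against 0, 21 and 13 without it. The own number was not the best match for every embryo. Depth limits mainly low genes, and the precision for this list was set by the spread between 5 embryos.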
